A study of Mus musculus with 6 samples.

Results

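The cytosolic ribosomal proteins examined here are the genes of the small (Rps, 40S) and large (Rpl, 60S) ribosomal subunits whose symbol is Rpl or Rps with a number and at most an a, x or l after it, together with Rplp0, Rplp1, Rplp2 and Rpsa. By this rule 46 of the 18193 genes tested were members, 22 of the small and 24 of the large subunit, measured by 100 probe sets. The rule used no measured value. It takes only probe sets annotated to a single gene, so that a ribosomal protein gene covered only by probe sets shared with its processed copies is not among the 46 and was not analysed here. Rps4l fits the naming rule and was kept, although RefSeq lists it as a transcribed pseudogene.

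The study asked what changes in mouse secondary follicles with ovarian aging. Follicles of one size class were dissected by hand from the ovaries of female C57BL/6J mice without any treatment, at 9 weeks (young) and at 32 weeks (old), and RNA of 3 samples from each age was hybridized to Affymetrix 3' expression arrays. The samples are labelled biological replicates, but no source used here says how many mice or follicles each pools, and the p-values rest on the spread among the 6 samples. Values are log2 of the deposited intensity, a fold change is given as the log2 value of old minus young, and a gene's value is that of its brightest probe set, by the mean of all 6 arrays.

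The ribosome is the particle that translates messenger RNA into protein. Its small subunit decodes the message, its large subunit joins the amino acids, and each subunit is built from ribosomal RNA and one copy of nearly every ribosomal protein. In mammals the messages of ribosomal proteins carry a terminal oligopyrimidine (TOP) tract at their start, through which mTOR signaling controls their translation as a group. A growing oocyte makes and stores ribosomes for the embryo, and dividing granulosa cells make them as they grow.

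The sequence around the start of the gene, where a TOP tract would lie, is shown for the 4 genes that passed the test below and, for comparison, for 4 genes with a pyrimidine core that did not. Each is 30 bases from the RefSeq promoter table (GRCm38.p6), 15 before and 15 from the annotated start, and capitals mark CTTTC or CTTTT or CTTCC on the transcribed strand, with overlapping matches shown once.
Rplp0 (chr5:115559452-115559481, plus strand): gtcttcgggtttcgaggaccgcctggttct
Rps9 (chr7:3704026-3704055, plus strand): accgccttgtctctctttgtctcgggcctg
Rpl27a (chr7:109519180-109519209, plus strand): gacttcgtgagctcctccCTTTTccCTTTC
Rps25 (chr9:44407699-44407728, plus strand): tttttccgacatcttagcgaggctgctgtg
Rpl38 (chr11:114668565-114668594, plus strand): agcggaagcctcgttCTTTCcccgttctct
Rpl35 (chr2:39005117-39005146, minus strand): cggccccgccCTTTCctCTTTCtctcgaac
Rps10 (chr17:27635230-27635259, minus strand): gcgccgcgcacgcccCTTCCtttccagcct
Rps27 (chr3:90213634-90213663, minus strand): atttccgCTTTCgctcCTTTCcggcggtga

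The table held 48 start windows for 40 of the 46 genes. A pyrimidine core of these letters lay within 15 bases of the start in 16 of the 48 windows (33.3%), against 13.0% of all 32851 windows in the table. The letters CCGGAA, on either strand of the 300 bases around the start, were in 26 of the 48 windows (54.2%) and in 14.9% of all windows. TATAAA, searched on the transcribed strand in the 50 bases before the start, was in 0 of the 48 and in 2.63% of all. Among the 4 genes that passed the test, Rpl27a had the pyrimidine core, and Rpl27a and Rps25 had CCGGAA. These matches describe letters, and the annotated start may differ from the start used in follicles.

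The ribosomal protein genes as a group were close to level between secondary follicles from the young and the old mouse ovaries. None of the 46 reached a fold of 2 with an adjusted p of at most 0.05 (limma, Benjamini-Hochberg over all genes), the thresholds of the study, where 0.764% of all genes did. Before adjustment, 9 of the 46 (19.6%) had a p under 0.05, 3 with higher and 6 with lower values, against 37.3% of all genes, and SAM, the test of the study's methods, also called none at a fold of 2. Whatever the fold, 2 were higher (Rpl27a and Rps25) and 2 were lower (Rplp0 and Rps9) at an adjusted p of at most 0.05. These 4 of 46 are 8.70%, where 23.4% of all genes passed, 10.1% higher and 13.3% lower.

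The median log2 fold change of the 46 genes was -0.02, and that of all genes was -0.004. The middle 50% of the ribosomal protein genes lay between -0.07 and 0.03, and of all genes between -0.14 and 0.13. A change smaller than a 15% rise or a 13% fall was measured for 42 of the 46 genes (91.3%), against 68.0% of all genes. For 39 of the 46 genes (84.8%) the 95% confidence interval of the change lay between a 20% fall and a 25% rise, against 50.3% of all genes. Most members were bright, and the contrast was smaller among genes with a mean log2 intensity of at least 10. There the interval lay within these limits for 94.1% of the 34 members and 69.9% of all 1050 genes. The measured change was within a 15% rise or a 13% fall for 94.1% and 73.0%. Averaged over the 46 genes, the young samples had log2 intensities of 11.31, 11.28 and 11.29 and the old ones of 11.31, 11.30 and 11.29, and the groups overlapped.

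**Figure D1:**
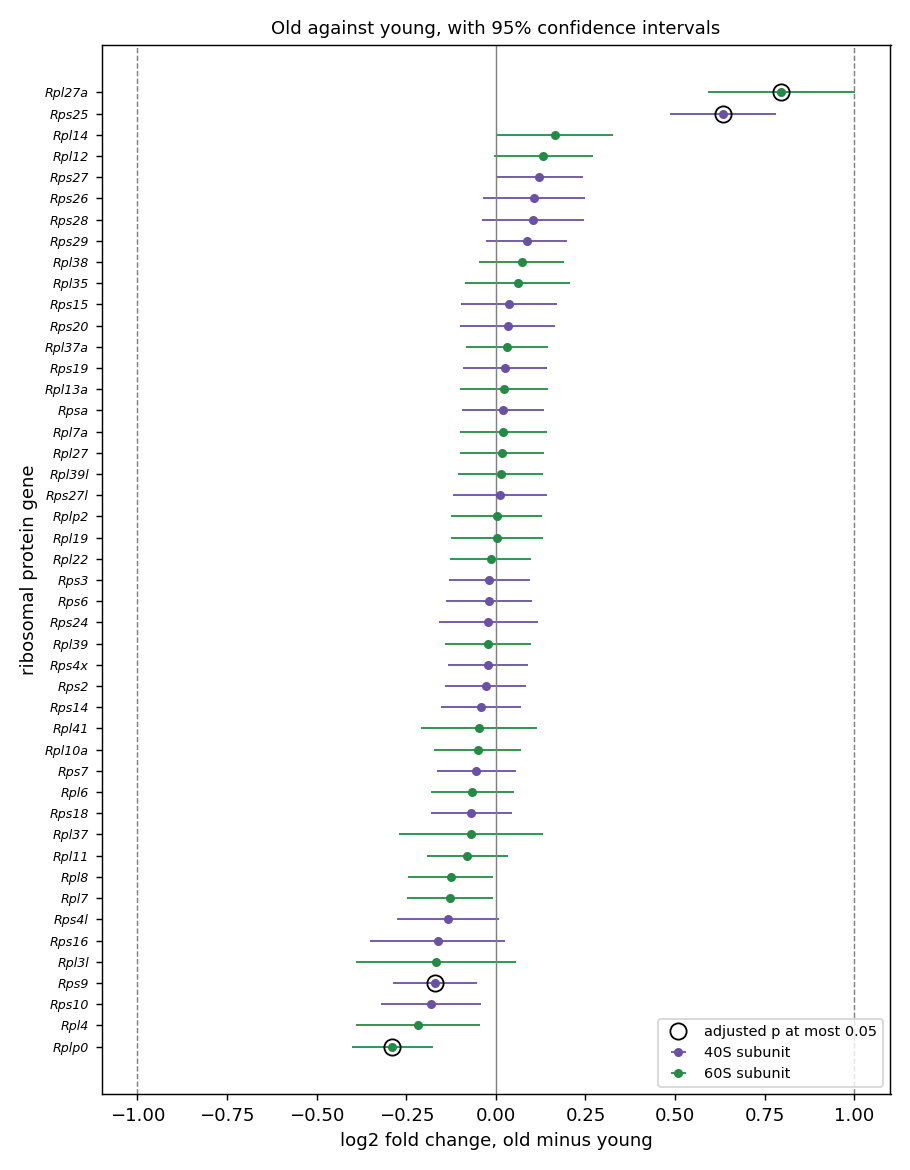
The log2 fold change of old against young follicles (horizontal axis) is plotted for each of the 46 ribosomal protein genes (vertical axis), with the 95% confidence interval as a bar, 40S genes in purple and 60S genes in green. Circles mark the 4 genes with an adjusted p of at most 0.05, the dashed lines mark a fold of 2, and all but Rpl27a and Rps25 lie between -0.29 and 0.16.

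**Figure D2:**
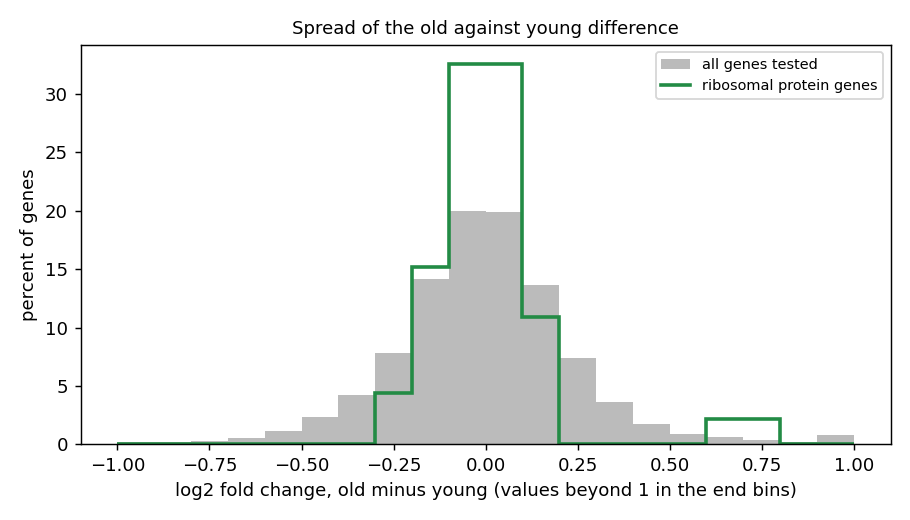
The share of genes (percent, vertical axis) is plotted in bins of the log2 fold change of old against young (horizontal axis), for all 18193 genes in grey and for the 46 ribosomal protein genes as a green line, with values beyond 1 placed in the end bins. The ribosomal protein genes gather nearer 0 than all genes, apart from Rpl27a and Rps25 on the right.

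The replicates of these genes lay close together, which bears on what the test could call. The median SD within the groups was 0.04 for the ribosomal protein genes and 0.09 for all genes, and the default limma prior draws each gene's spread toward that of all genes. Another prior followed intensity and was also robust to genes of outlying spread, with both changes made together. With it, 5 of the 46 were higher and 7 were lower (26.1%, where 30.1% of all genes passed). The 8 genes added were Rpl4, Rpl7, Rpl8, Rpl11 and Rps10 (lower) and Rps26, Rps28 and Rps29 (higher). No added gene changed by more than 0.22. Without overlap between the ages were 21 of the 46 genes, 12 lower and 9 higher, or 45.7%, and 42.5% of all genes.

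Rplp0 and Rps9 were the ribosomal protein genes that passed toward lower values. Rplp0 encodes the protein at the base of the stalk through which the large subunit recruits translation factors. Young samples had log2 intensities of 12.78, 12.79 and 12.75, and old samples of 12.51, 12.47 and 12.47. Every old sample was below every young sample, and the level in old follicles was 18.2% lower (log2 fold change -0.29, standard error 0.05, 95% confidence interval -0.40 to -0.18, limma adjusted p = 0.0060). It passed in each of the 18 alternative analyses, with an adjusted p of at most 0.030. Rplp0 was measured by 1 probe set. Rplp2, which encodes another stalk protein, was at 13.37 ± 0.06 in young and 13.37 ± 0.03 in old follicles (SD, n = 3 each), a difference of 0.003 with a 95% confidence interval of -0.12 to 0.13.

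Rps9, a small subunit protein near the site where the message enters, had log2 intensities of 12.48, 12.43 and 12.43 in young and of 12.30, 12.28 and 12.25 in old follicles. The groups did not overlap, and the log2 fold change was -0.17 (standard error 0.05, limma adjusted p = 0.048). This call was near the threshold. It was lost without any one of the 6 samples (adjusted p from 0.081 to 0.15) and with SAM (q = 0.14). The brightest probe set of Rps9 is of a kind shared between genes, and its other probe sets, at means of 10.62 and 6.50, gave -0.02 and 0.06, neither past the test.

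Rpl27a and Rps25 had the largest differences of the 46 genes, and both were higher in the old follicles. Rpl27a encodes a large subunit protein. The young samples lay at 8.41, 8.37 and 8.42 and the old ones at 9.39, 9.07 and 9.13, 1.74-fold higher (log2 fold change 0.80, standard error 0.09, limma adjusted p = 0.0012). Rps25 encodes a small subunit protein that some viral messages need for their cap-independent translation. The young samples lay at 8.65, 8.48 and 8.57 and the old ones at 9.16, 9.25 and 9.19, 1.55-fold higher (log2 fold change 0.63, standard error 0.06, limma adjusted p = 8.5e-04). For neither gene did the ages overlap, and old replicate 1 was the highest sample for Rpl27a, which was at 0.70 without it and still passed.

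No second probe set of its own could check either gene. The dimmer probe set of Rpl27a, at 2.34 in young and 2.48 in old follicles, was below the lower quartile of probe sets on all 6 arrays, and Rps25 had no other probe set annotated to it alone. The array also holds a probe set annotated to Rpl27a together with 4 other genes. It was at 12.90 ± 0.07 in young and 12.96 ± 0.01 in old follicles (SD, n = 3 each), with overlapping groups and a difference of 0.06. A probe set annotated to Rps25 together with 2 other genes was at 12.24 ± 0.03 and 12.23 ± 0.07, a difference of -0.004. Such shared probe sets cannot be given to 1 gene and were not tested. Where the probe sets lie on the transcripts, and which transcript forms of Rpl27a and Rps25 they detect, was not analysed here.

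**Figure D3:**
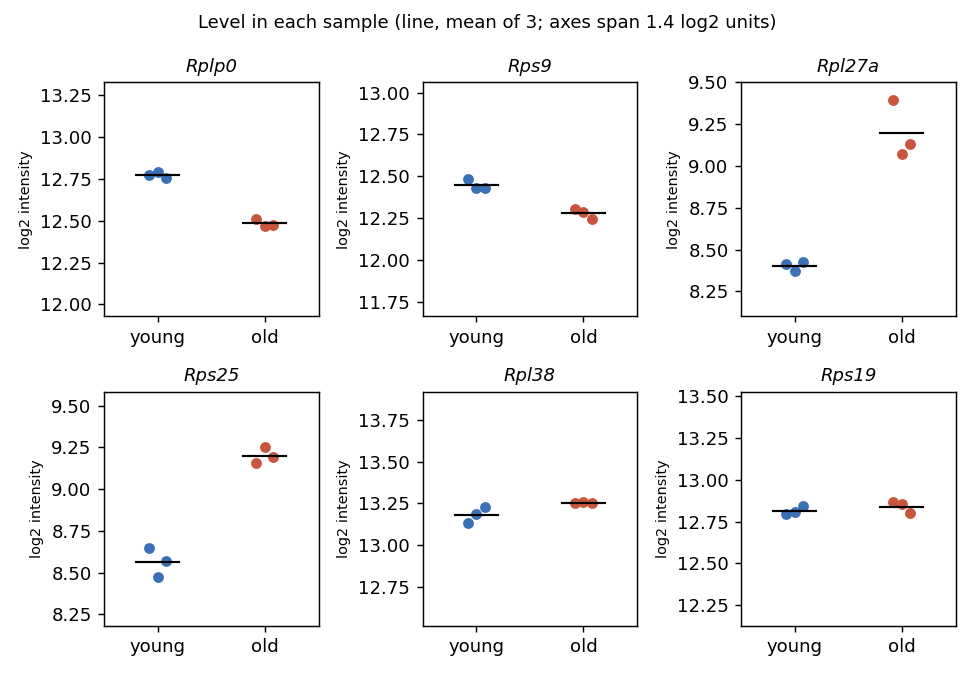
The log2 intensity (vertical axis, 1.4 units in every panel) of the 4 genes that passed the test and of Rpl38 and Rps19, which did not, is plotted for each young and old sample as a point, with a line at the mean of 3 samples. The ages are apart for Rplp0, Rps9, Rpl27a and Rps25, and also for Rpl38, at a shift of 0.07, while Rps19 overlaps.

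The other 42 genes had log2 fold changes from -0.22 to 0.16, and no bound of their 95% confidence intervals went beyond -0.39 or 0.33. Rpl4 and Rps10 came nearest to the threshold. Rpl4, a large subunit protein that lines the tunnel through which the new protein leaves, had 12.85, 12.68 and 12.64 in young against 12.60, 12.47 and 12.46 in old follicles (log2 fold change -0.22, adjusted p = 0.072 from limma). Rps10, a small subunit protein mutated in some people with Diamond-Blackfan anaemia, was at 12.90, 12.76 and 12.76 and at 12.64, 12.65 and 12.59 (log2 fold change -0.18, adjusted p = 0.068 from limma). Their groups did not overlap, and these genes, like others named in the next paragraphs, were chosen after their values were seen.

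Among the other small subunit genes, Rps6, the protein that S6 kinase phosphorylates downstream of mTOR, was at 9.04 ± 0.01 in young and 9.02 ± 0.05 in old follicles (SD, n = 3 each), with a 95% confidence interval of the difference of -0.14 to 0.10. Rps3, which lies at the entry of the message channel, differed by -0.02 and Rpsa, also known as the laminin receptor, by 0.02. Rps19 and Rps24, further genes of Diamond-Blackfan anaemia in humans, differed by 0.03 and -0.02. The dimmer probe sets of Rps24 had negative differences too. The one at a mean of 7.78 passed in the fit of all probe sets (-0.20, limma adjusted p = 0.046). At their brightest probe sets Rps14, Rps7 and Rps18 had old samples all below the young ones, by 0.04, 0.05 and 0.07. None of these differences passed the test. Other bright probe sets gave -0.13 for Rps7, -0.08 and 0.07 for Rps18, and 0.04 for Rps14. The one of Rps18 at 0.07 had old samples all above the young ones, and that of Rps14 overlapped. Rps26, Rps28 and Rps29 had old samples all above the young ones, with differences of 0.11, 0.10 and 0.09 that did not pass either.

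Among large subunit genes, Rpl11, which binds the p53 regulator Mdm2 when ribosome assembly is disturbed, differed by -0.08, and Rpl13a, which in human cells leaves the ribosome after interferon-gamma to silence inflammatory messages, by 0.02 (95% confidence interval -0.10 to 0.15). Rpl38, which in mouse embryos is required for the translation of a set of Hox messages, had 13.13, 13.18 and 13.23 in young against 13.25, 13.26 and 13.25 in old follicles. Rpl7 and Rpl8 had differences of -0.13 each and Rpl6 of -0.07. Rpl12 and Rpl14 had 0.13 and 0.16, at probe sets of 7.60 and 7.07 in the young samples. None of these genes passed the test. Over the small subunit genes the median was -0.02, and over the large subunit genes -0.006, with 1 gene of each subunit higher and 1 lower.

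Several members are paralogs, copies of a ribosomal protein gene with their own pattern of use. Rps27l, which p53 induces in human cells, was at 11.82 ± 0.03 in young and 11.83 ± 0.07 in old follicles (SD, n = 3 each), and Rps27 was at 6.53 ± 0.04 and 6.65 ± 0.03, a difference of 0.12 (adjusted p = 0.14 from limma). Rpl39l, a copy known in mouse for its role in male germ cells, was at 8.89 ± 0.04 and 8.90 ± 0.02, with a 95% confidence interval of the difference of -0.11 to 0.13. Rpl39 itself was at 5.35 ± 0.03 and 5.33 ± 0.04. Rps4l differed by -0.13 and Rps4x, the copy on the X chromosome, by -0.02, neither past the test. Rpl3l, the copy of striated muscle, was below the lower quartile of probe sets on all 6 arrays, as was the 1 probe set of Rps16. Their differences were -0.17 and -0.16, and the ages overlapped. Both remain among the 46 genes counted above, though signals this low cannot show a change or tell whether a gene is expressed. Levels of different probe sets, as of a paralog and its partner, do not rank the amounts of their messages.

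Probe sets of one gene did not always give the same sign. Of the 100 probe sets, 4 passed toward higher and 4 toward lower values (22.8% of the 34945 probe sets with a single gene did), and none reached a fold of 2, as 1.02% of them did. The lower 4 were of Rplp0 (-0.29), Rpl7 (-0.22), Rps24 (-0.20) and Rpl22 (-0.18), the last 3 not at the brightest probe set. No probe set of Rps9 passed in this fit (limma adjusted p = 0.068 for the brightest). For the 18 genes with several probe sets of a mean log2 intensity of at least 10, the probe sets of a gene spanned a median of 0.09, and in 8 of the 18 genes they lay on both sides of 0. The 5 bright probe sets of Rps10 ran from -0.18 to 0.12. Rpl7 was the more even case, with its 3 probe sets at -0.13, -0.22 and -0.21. Rpl41, the smallest ribosomal protein, had -0.05 and 0.11 at its brightest probe sets and 0.21 and 0.35 at its dimmer ones, and the last 2 passed the test (adjusted p = 0.034 and 0.023 from limma over all probe sets). A further 110 probe sets list a member or another ribosomal protein of the naming rule among several genes. Their median difference was -0.004, and 107 of the 110 lay within 0.25 either way. The highest was 0.68, the next highest 0.30 and the lowest -0.25.

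**Figure D4:**
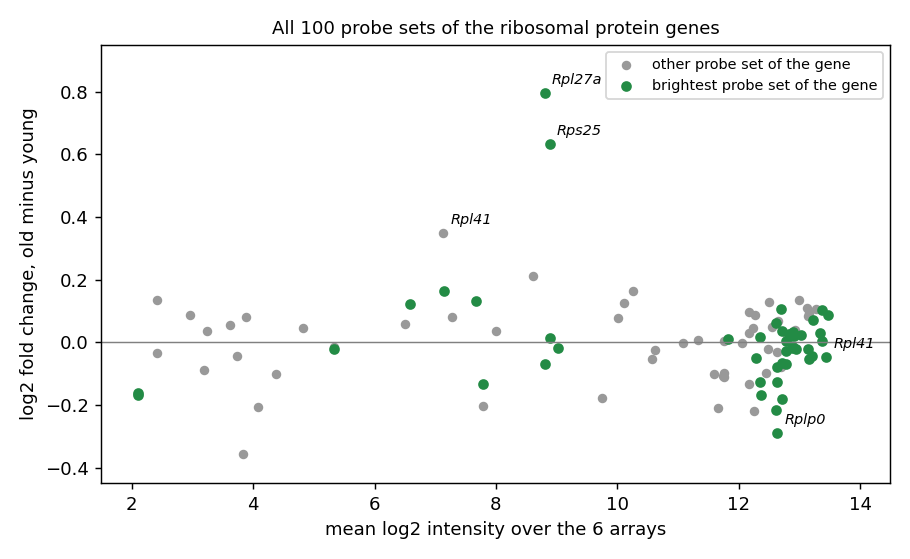
The log2 fold change of old against young (vertical axis) is plotted against the mean log2 intensity over the 6 arrays (horizontal axis) for all 100 probe sets, in green for the brightest probe set of each of the 46 genes and in grey for the others. The 34 genes above 10 lie between -0.29 and 0.11, and the highest points, of Rpl27a, Rps25 and a dimmer probe set of Rpl41, have means below 10.

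Most members were measured near the top of the arrays, 34 of 46 with a mean log2 intensity between 11.83 and 13.46 and the other 12 between 2.10 and 9.03. Of the bright 34, 0 were higher and 2 were lower by limma, while 29.5% of all 1050 genes above 10 passed. Before adjustment 0 and 6 of the 34 had a p under 0.05 (17.6%), against 211 and 268 of the 1050 (45.6%). In a fit of those 1050 genes alone, added after the data were seen, 55.8% of the genes passed and 7 of the 34 members did, 1 higher and 6 lower. Both genes that passed toward higher values were among the 12 dimmer ones. Whether signals near the top were compressed on these arrays was not tested.

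Other genes of the translation machinery were counted over lists written from general knowledge, against the 10.1% of all genes that were higher and the 13.3% that were lower. Of 9 genes measured from the elongation factor list, 3 were lower (33.3%) and none was higher by limma, with a median of -0.08. At an unadjusted p under 0.05 also 0 were higher. The 3 lower genes included Eef1e1 (-0.69), a scaffold protein of tRNA synthetases rather than an elongation factor. The others were Eif5a2 (-0.33) and Eef2, which moves the ribosome along the message (-0.23). The list also holds the kinase Eef2k, which did not pass. Eef1a1, which brings the charged tRNA, differed by -0.005. Of 33 genes from the initiation factor list, 5 were lower (15.2%) and 0 were higher, with a median of -0.06. Before adjustment 13 of the 33 had a p under 0.05 with lower values and 0 with higher ones. This list also holds Eif4ebp1 and Eif4ebp2, which are counted again with mTOR signaling below, as is Eif4e. The largest difference was that of Eif3m, a subunit of the factor that joins the small subunit to the message (-0.95, standard error 0.05, limma adjusted p = 6.9e-05), followed by Eif3a (-0.36) and Eif3e (-0.34). With the next brightest probe set these genes were at -0.17, -0.12 and -0.12, and none of the 3 passed (limma adjusted p = 0.16, 0.20 and 0.26). Eef2 was then at -0.02 and did not pass either.

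Of 10 further genes known for TOP messages, 6 were lower (60%) and 1 was higher (10%), with a median of -0.23. Of all genes 13.3% were lower and 10.1% higher. Ybx1 (-0.37), Btf3 (-0.36) and Vim (-0.38) had the smallest p-values, and Hnrnpa1 was the 1 higher (0.37). When the probe sets of each gene were averaged, Btf3 was at 0.03, Vim at 0.14 and Ybx1 at -0.19. None of them passed (limma adjusted p = 0.73, 0.15 and 0.065). With the next brightest probe set Vim passed toward higher values (0.41, limma adjusted p = 0.015). Ybx1 was then at -0.16 and did not pass (limma adjusted p = 0.098). Pabpc1, the poly-A binding protein, was at -0.28 and Tpt1 at -0.04. Of 20 chaperone and late assembly genes, 4 were lower (20%), among them Ltv1 (-0.24) and Aamp (-0.22), and 1 (5%), Zfp622, was higher (0.25). Of 13 genes of mTOR signaling toward these messages, 3 were lower (23.1%), Tsc2 (-0.40), Rheb (-0.29) and Akt1s1 (-0.32), and 0 were higher. Larp1, which binds the TOP tract, differed by -0.008. The activity of mTOR was not measured.

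Ribosomal proteins whose symbols fall outside the naming rule were measured for 4 of 7 genes. Rps3a1, a small subunit protein, was lower (-0.20, limma adjusted p = 0.026), a call lost in 8 of 18 alternatives, among them SAM (q = 0.090), while Rpl7l1 (-0.15), Rpl22l1 (-0.15) and Fau (0.08) did not pass. The mitochondrial ribosome is a separate particle that translates the messages of the mitochondrial genome. Of its 73 genes, 9 were higher and 6 were lower (20.5% in all, where 23.4% of all genes passed), with a median of 0.02, and the largest differences were those of Mrpl45 (-0.52), Mrpl19 (-0.47) and Mrpl16 (-0.41). Whether the cytosolic and mitochondrial genes differ in this was not tested.

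Levels of cell type markers and the 3' to 5' signal of control probe sets also differed between the ages. In RNA of whole follicles, fewer cells of a type and less RNA per cell cannot be told apart, and no cells were counted. The oocyte markers Zp3 and Gdf9 and the granulosa markers Inha and Foxl2 had log2 intensities above 10 on every array. The mean log2 level of 13 oocyte markers was 10.52 to 10.55 in young and 10.19 to 10.21 in old follicles, with 11 lower. That of 10 granulosa markers was between 10.61 and 10.66 and between 10.54 and 10.60. Of these 10, 2 were lower, Kitl (-0.43) and Esr2 (-0.47), 1 was higher, Fst (0.21), and 7 did not pass. Of 12 macrophage and leukocyte markers 9 were higher and 1, Lyz2, was lower (-0.32), with means from 5.10 to 5.19 and from 5.76 to 5.86. Of 6 surface epithelium markers all were higher, with means from 6.03 to 6.09 and from 6.93 to 7.08. Of 9 theca and stroma markers 6 were higher, with means from 7.46 to 7.48 and from 8.11 to 8.17. Star (1.87) and Cyp11a1 (1.34) had the largest differences of these, while Cyp17a1 (-0.11), Pdgfra (-0.02) and Dcn (0.24) did not pass. With the next brightest probe set Star was at 1.18 and still passed, but Cyp11a1 was at 0.05 and did not (limma adjusted p = 0.69). The 3' probe set of Gapdh was above its 5' probe set by 0.47 ± 0.01 in young and 1.51 ± 0.005 in old follicles (SD, n = 3 per age; exact two-sided permutation test, p = 0.1, the smallest p that 3 against 3 allows). The part of these shifts in the values of Rplp0, Rps9, Rpl27a and Rps25 was not tested.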

How the data were processed

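Secondary follicle RNA of 3 young and 3 old samples was measured on Affymetrix mouse 3' expression arrays. The authors used RMA (version not given in the sources here) and deposited intensity values on a linear scale, between 2.62 and 13880. The log2 of these values was taken, with no pseudocount and no filter. RMA sets all arrays to one distribution, so a shift shared by most genes cannot be seen. Of 45101 probe sets, 34945 had 1 gene symbol in the platform annotation. The 932 with several, 9160 not listed and 64 controls stayed out of the fits. Symbols were updated through RefSeq (GRCm38.p6), which held 18032 of 18194 gene IDs.

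Old and young samples were compared by lmFit and eBayes of limma 3.58.1 (R 4.3.3), with two-sided p-values adjusted over the 18193 genes by Benjamini-Hochberg. SAM was rewritten with all 20 label assignments. Steps were tested on simulated data. Named were members past an adjusted p of 0.05, paralogs with their partners, and up to 3 genes of each list with the smallest p, besides genes named as chosen later. The members and lists were chosen with earlier results of these data known. The mitochondrial genes and the filter at a mean log2 intensity of 10 were added after the data were seen. The alternatives were SAM, other probe set rules, filters, normalizations, priors and weights, the replicate block and leaving out each sample. Arrays have no depth, and their number limits the precision.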

Additional observations from a re-analysis of the deposited data

How the results depend on the processing

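In none of the 18 alternative analyses did any of the 46 ribosomal protein genes reach a fold of 2 with an adjusted p of at most 0.05. Rplp0 passed in all 18 and Rps25 in every one of the 17 that measured it, as did Rpl27a, except with its next brightest probe set (0.14), which was below the lower quartile on all arrays and could not show a change. The count of higher genes, 2, was 1 with the next brightest probe sets, 4 after quantile normalization, 5 after cyclic loess and 5 with the intensity trend. The count of lower genes, 2, was 1 with SAM, the next brightest probe sets, quantile normalization or median centring, 4 above a mean of 5 and 7 with the intensity trend. Among genes above a mean of 10, tested alone after the data were seen, 1 was higher and 6 were lower of 34, where 263 and 323 of 1050 genes passed and 2 were called at a fold of 2. The median of the group, -0.02, moved to 0.026 with median centring, which moved that of all genes to 0.04.

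Without 1 sample, the lower count was 1 each time (1 to 1) and the higher count 2. Over all genes, 1137 to 1471 were then higher, fewest without old replicate 3 and young replicate 2 (1145), and 1478 to 2153 lower, fewest without the same samples (1478 and 1516), against 1835 and 2422. Without the probe sets shared between transcripts, Rps9 turned to 0.058, Rpl41 to 0.35, Btf3 to 0.0085 and Zfp622 to -0.0051. Of these Rpl41 then passed toward higher values (limma adjusted p = 0.021). Rpl7 (-0.22) and Rps24 (-0.20) passed toward lower ones there (limma adjusted p = 0.036 and 0.035). With the mean of all probe sets Btf3 turned to 0.032 and Vim to 0.14, and with the next brightest ones Eif5a2 turned to 0.17, Btf3 to 0.0085, Vim to 0.41, Zfp622 to -0.0051 and Fst to -0.13. Of 16 genes named from the translation lists that passed, 9 lost their call or changed sign with the next brightest probe set. Of the others, only Akt1s1 had another probe set, and it kept its call. Eef1e1, Tsc2, Rheb, Rps3a1, Ltv1 and Aamp had 1 probe set each, so a change of probe set could not test them. Eef1e1, Tsc2 and Rheb passed in every alternative that measured them. Aamp and Zfp622 lost their calls in 8 alternatives each and Akt1s1 in 7. The cause was not tested. The replicate block gave 2 higher and 1 lower gene, with Rps9 lost (adjusted p = 0.095 from limma). Deviations of young and old samples with the same number had r of 0.05, -0.0003 and 0.04. Those with unlike numbers had r from -0.09 to 0.06. These values show no shared deviation by number and cannot tell whether samples were handled in pairs.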
